A study of Mus musculus with 6 samples.

Results

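The genes described here are 38 genes of the actomyosin contractile apparatus, its transcriptional control and intermediate filaments, measured in cultured mouse liver CD31-positive cells. They were chosen by symbol from a table of 13595 genes, and all 38 were found in it. They were sorted, roughly by textbook tissue distribution, into 8 genes called smooth muscle restricted (Acta2, Actg2, Tagln, Cnn1, Myh11, Lmod1, Smtn and Des), 7 called smooth muscle enriched (Myl9, Mylk, Cald1, Tpm1, Tpm2, Csrp1 and Csrp2), 20 called general actomyosin, and the transcription factor gene Srf with its cofactor genes Mkl1 and Mkl2. The class names are loose: Des (restricted) and Vim (general) encode intermediate filaments, and Des is not confined to smooth muscle. The cells were isolated from livers of 4-week-old C57BL6/J mice by CD31, an endothelial surface protein, and cultured. Every library came from cells given 100 µM indoxyl sulfate, a tryptophan metabolite that activates the aryl hydrocarbon receptor, together with hypoxia and nutrient deprivation for 6 hours. The 3 libraries labelled male (male 4, 5 and 6) and the 3 labelled female (female 4, 5 and 6) give 1 contrast, that of sex, and indoxyl sulfate, hypoxia and nutrient deprivation cannot be told apart from one another. Cells given DMSO are not analysed here. The labels do not say whether replicates are mice, pools of mice, isolations or wells, so each SD and p-value describes the spread between these libraries, which may be technical.

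Libraries held between 22303270 and 31189363 reads, summed over all listed genes. Normalized read counts, the unit used throughout, are whole reads divided by 1 factor per library, and 1 read was worth between 0.0353 and 0.0475. Male 4 stood apart from its group: the chi-square statistic per gene, near 1 for sampling alone, was 43.6 and 45.4 against male 5 and male 6, and from 4.35 to 9.59 for the other 4 pairs within a group. Xist, the RNA of X inactivation, followed the labels (234 to 324 in the libraries labelled female, 0.124 to 0.458 in those labelled male). Transcripts of the 4 Y-linked genes examined were read in every library, with Ddx3y at 48.5 to 57.7 in female-labelled libraries and 47.2 to 76.3 in male-labelled ones. Uty overlapped as well, whereas Eif2s3y (29.4 to 30.2 against 55.3 to 61.2) and Kdm5d (17.6 to 20.8 against 30.7 to 37.5) were lower in female-labelled libraries but well above 0. This goes against the female label, so every direction below refers to libraries as labelled.

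In contractile cells, myosin II bipolar filaments pull on actin filaments, and phosphorylation of the regulatory light chain by myosin light chain kinase switches the motor on. Non-muscle cells use cytoplasmic actins and non-muscle myosins for stress fibres and the cell cortex, whereas smooth muscle cells, pericytes and myofibroblasts add dedicated isoforms such as alpha smooth muscle actin and smooth muscle myosin. Many of these genes are controlled by serum response factor (SRF), which binds a DNA element called the CArG box and is activated by the cofactors MKL1 and MKL2 (also called MRTF-A and MRTF-B) when monomeric actin is used up. In liver, alpha smooth muscle actin is known as a marker of activated stellate cells.

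Most of the contractile genes were higher in female-labelled libraries, with a larger median difference for the smooth muscle restricted genes than for the general ones. Of the 38 genes, 30 were called higher and 5 lower (limma on log2(value + 1), Benjamini-Hochberg adjusted p under 0.05 over all genes tested). Over the 12568 genes tested, 69.3% were called, 34.6% as higher and 34.6% as lower, so a call by itself sets no gene apart here. The groups did not overlap for 35 of the 38 genes, with the female-labelled libraries above for 30 and below for 5, against 74.1%, 37.1% and 37.0% of the genes tested. By edgeR's quasi-likelihood test on recovered reads, 35 of the 38 were called, against 68.0% of 13199 genes. Among restricted genes 7 were called higher and 1 lower, among enriched genes 6 and 1, among general genes 15 and 3, and among SRF and its cofactors 2 and 0. The median log2 change was 3.58 for restricted, 1.16 for enriched and 0.59 for general genes, against 0.01 for all genes tested. A log2 change of at least 1 with a call was reached upward by 6 of 8 restricted, 5 of 7 enriched and 6 of 20 general genes, against 8.51% of all genes tested. All 38 genes passed the filter on low values, but Actg2 passed it through the libraries labelled female alone and so had to differ. Without it, 29 genes were called higher, and the restricted median was 3.66. In bulk RNA, fewer cells of a type and less RNA per cell cannot be told apart.

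**Figure D1:**
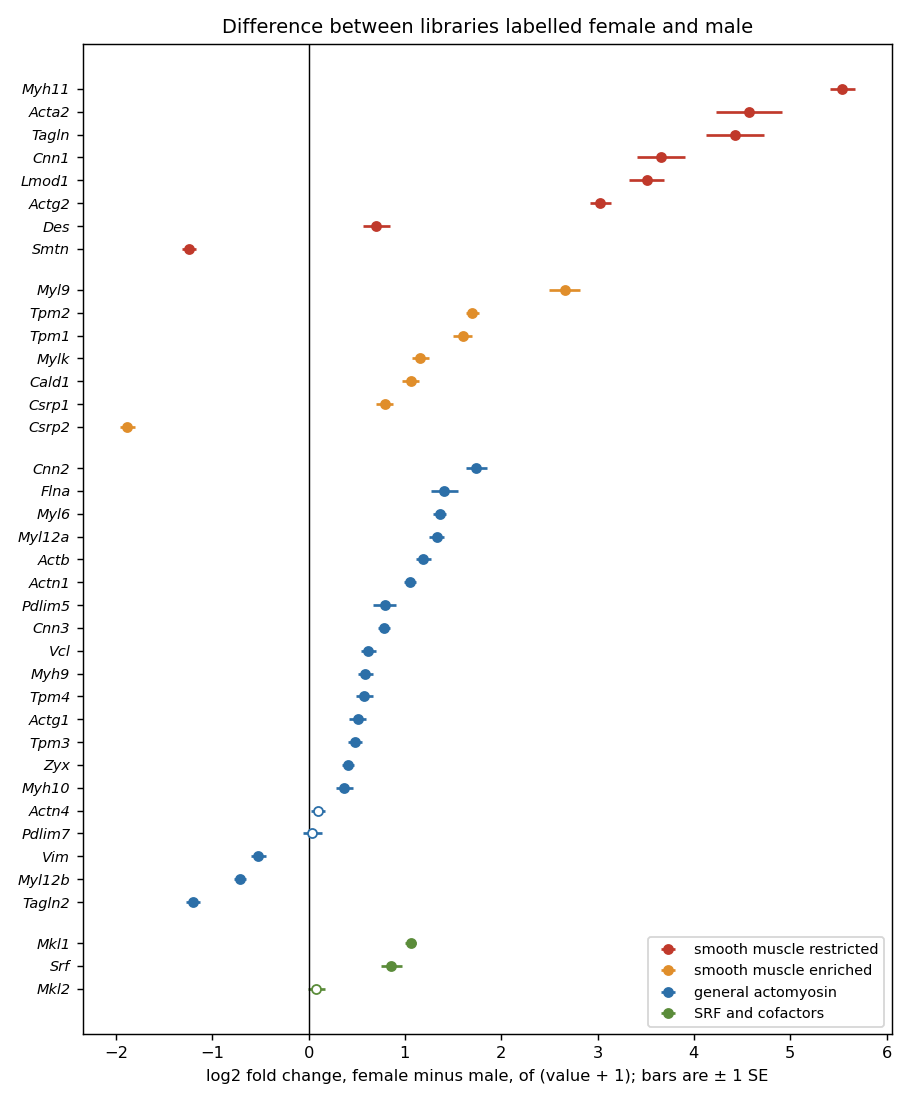
Log2 change of each of the 38 genes on the log2(value + 1) scale, female minus male, by class, with bars of 1 SE. Filled points were called at a limma adjusted p under 0.05 and open points (Actn4, Pdlim7 and Mkl2) were not. Restricted genes span -1.24 (Smtn) to 5.54 (Myh11), and general genes span -1.20 (Tagln2) to 1.74 (Cnn2).

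Averaged per library as mean log2(value + 1), the restricted class stood at 3.81, 3.48 and 3.33 in male 4, 5 and 6, and at 6.75, 6.56 and 6.39 in female 4, 5 and 6. The general class stood at 9.17, 9.01 and 9.0 in the former and at 9.62, 9.62 and 9.57 in the latter. The groups were apart for both classes, by 3.02 (restricted) and 0.54 (general) on this scale. No test was made of the difference between classes, since genes are not replicates.

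SRF and its cofactors. Srf, the transcription factor gene, was read at 16.4, 18.5 and 19.5 in male 4, 5 and 6 and at 36.2, 35.9 and 29.3 in female 4, 5 and 6. It was called higher, with a log2 change of 0.86 (SE 0.11, limma adjusted p 0.00015). Mkl1 rose from 39.6 ± 0.743 to 83.5 ± 1.83 (SD, n = 3), a log2 change of 1.06 (SE 0.06, limma adjusted p 1.35e-06). Its groups did not overlap. Mkl2, the sister cofactor, was at 67.3 ± 8.01 in male-labelled libraries and 71.0 ± 3.53 in those labelled female (SD, n = 3), and the groups overlapped (log2 change 0.08, limma adjusted p 0.439). Male 4, at 76.5, was the highest of all 6 libraries for Mkl2, and without it the gene was called higher (0.18, limma adjusted p 0.0198). Myocd, the smooth muscle member of the same cofactor family, was near the floor, from 0.332 to 0.610 in male-labelled libraries and from 1.38 to 1.94 in those labelled female. It passed the filter through the latter alone.

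The promoters of the contractile genes bear on this group, because SRF acts through CArG boxes close to transcription starts. RefSeq promoters (GRCm38.p6, 250 bases before to 50 after a start) were found for 33 of the 38 genes, and none for Actg2, Tagln, Myh11, Csrp2 and Actb. The CArG pattern is symmetric, so a match on either strand is a match on both, although the matched letters can differ. A full CArG box was present in a promoter of 6 of the 33 genes (18.2%), in 1.63% of the 10739 genes of the table with a promoter entry, and in 1.63% of all 32851 promoters. The 6 genes were Srf, Myl9, Actg1, Cnn2, Vcl and Myl6, and all 6 were called higher in the libraries labelled female. Of the 27 genes with a promoter entry and no full box, 20 were also called higher, so the calls do not set the 6 apart. None of the 5 restricted genes with a promoter entry held a full box in this window. Near matches, in which 1 of the 6 central letters is G or C, were present for 5 of the 33 genes (15.2%; Acta2, Myl9, Myl12a, Tpm3 and Mkl1), against 9.16% of the genes of the table with an entry and 8.5% of all promoters. Acta2 held a pair of them. To show where CArG boxes lie in genes that rose, the 250 bases before the start of 5 genes follow, 5′ to 3′ along the gene, with the full CArG boxes in capitals. For Acta2, which has none, the capitals mark the near matches, and the near match of Myl9 is left in lower case.
Srf (chr17:46556163-46556412, minus strand): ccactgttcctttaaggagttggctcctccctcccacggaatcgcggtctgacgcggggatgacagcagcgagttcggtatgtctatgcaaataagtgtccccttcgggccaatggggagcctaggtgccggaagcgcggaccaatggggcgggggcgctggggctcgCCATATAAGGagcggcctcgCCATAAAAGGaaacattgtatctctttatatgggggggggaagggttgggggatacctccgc
Cnn2 (chr10:79988350-79988599, plus strand): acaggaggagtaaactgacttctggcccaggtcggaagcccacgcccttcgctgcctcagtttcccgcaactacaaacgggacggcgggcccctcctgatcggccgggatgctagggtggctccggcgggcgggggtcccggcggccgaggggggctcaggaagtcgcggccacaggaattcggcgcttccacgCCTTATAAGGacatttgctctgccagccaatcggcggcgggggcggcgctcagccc
Actg1 (chr11:120348496-120348745, minus strand): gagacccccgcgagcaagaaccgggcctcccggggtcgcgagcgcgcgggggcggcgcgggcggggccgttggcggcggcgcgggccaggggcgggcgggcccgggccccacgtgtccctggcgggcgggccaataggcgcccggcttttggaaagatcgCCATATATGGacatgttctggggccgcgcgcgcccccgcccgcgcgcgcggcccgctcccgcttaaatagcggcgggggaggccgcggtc
Myl9 (chr2:156775214-156775463, plus strand): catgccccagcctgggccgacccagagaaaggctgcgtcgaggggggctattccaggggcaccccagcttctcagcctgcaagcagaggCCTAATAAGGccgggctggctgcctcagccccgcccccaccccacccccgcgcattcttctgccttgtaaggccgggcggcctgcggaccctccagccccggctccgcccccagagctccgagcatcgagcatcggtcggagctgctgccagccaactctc
Acta2 (chr19:34255374-34255623, minus strand): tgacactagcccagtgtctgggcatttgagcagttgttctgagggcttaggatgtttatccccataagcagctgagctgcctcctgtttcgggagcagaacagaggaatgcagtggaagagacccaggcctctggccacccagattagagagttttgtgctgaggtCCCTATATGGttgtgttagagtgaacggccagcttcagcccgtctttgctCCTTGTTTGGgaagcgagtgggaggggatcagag
The boxes begin at -82 and -62 from the start in Srf, at -56 in Cnn2, at -90 in Actg1, at -161 in Myl9, at -227 in Vcl and at -50 in Myl6. The near matches of Acta2 begin at -84 and -34. A match is a string of letters, not a measured binding site, and the absence of one says nothing about sites elsewhere. The files' build is given as mm39 by the submitters' processing notes, and these coordinates belong to GRCm38.p6.

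Actins. Acta2, alpha smooth muscle actin (chromosome 19), was read at 134, 56.4 and 45.9 in male 4, 5 and 6 and at 1887, 1682 and 1513 in female 4, 5 and 6. Every library labelled female was at least an order of magnitude above every library labelled male, and male 4 was the highest of its group. The group means were 78.6 ± 47.9 and 1694 ± 187 (SD, n = 3), a 21.5-fold difference, with a log2 change of 4.57 (SE 0.34, limma adjusted p 6.57e-06). That log2 change ranked number 8 from the top among the 12568 genes tested. Without male 4 the difference was 33.1-fold (log2 change 5.02).

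Actg2, the gamma actin of enteric smooth muscle (chromosome 6), held 1, 3 and 1 reads in male 4, 5 and 6 and 200, 166 and 158 reads in female 4, 5 and 6. The ratio of the normalized sums was 122, with an exact 95% interval from 51.8 to 376 that covers counting error only. Per kilobase of transcript it remained a minor actin, at 5.79 ± 0.386 (SD, n = 3) in female-labelled libraries against 832 ± 92.0 for Acta2.

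The cytoplasmic actins are made by most cells. Actb (chromosome 5) was read at 1712, 1851 and 1936 in male 4, 5 and 6 and at 4204, 4262 and 4041 in female 4, 5 and 6, a log2 change of 1.19 (SE 0.08, limma adjusted p 3.59e-06). Actg1 (chromosome 11) was read at 1855 ± 163 and 2631 ± 142 (SD, n = 3), a log2 change of 0.51 (SE 0.09, limma adjusted p 0.000953). Both rose with no overlap between groups, but by 2.27-fold and 1.42-fold. Of the 50-base words of Actg1 transcripts, 37.4% also occur in other annotated genes. How far this affects its level was not tested.

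The make-up of the actin pool differed accordingly. As a share of the summed value per kilobase of the 4 actins, Acta2 took 3.28%, 1.48% and 1.15% in male 4, 5 and 6 and 20.5%, 18.7% and 18.0% in female 4, 5 and 6. Actg1 took 48.8% ± 2.88 in male-labelled libraries and 30.9% ± 0.171 in those labelled female (SD, n = 3). The share of Actb overlapped, at 49.2% ± 4.02 and 49.9% ± 1.39 (SD, n = 3). The summed actin value per kilobase was 1944 ± 63.4 and 4357 ± 212 (SD, n = 3). These shares are ratios within a library and do not depend on how libraries were scaled.

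**Figure D2:**
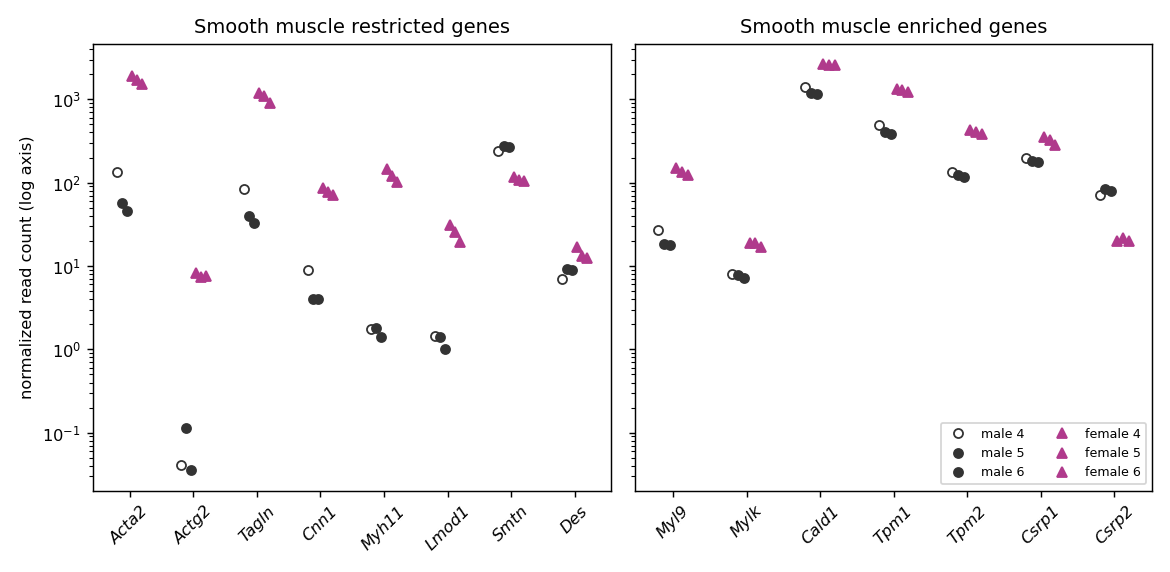
Normalized read count (log axis) of the smooth muscle restricted and enriched genes in each library. Circles are libraries labelled male, with male 4 open, and triangles are libraries labelled female. Smtn and Csrp2 are the genes with the triangles below the circles, and male 4 lies above male 5 and male 6 for Acta2, Tagln, Cnn1 and Myl9.

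Myosin heavy chains. Myh11, the smooth muscle heavy chain and a selective marker of that lineage (chromosome 16), was read at 1.74, 1.79 and 1.41 in male 4, 5 and 6 and at 147, 121 and 103 in female 4, 5 and 6. The difference was 75-fold, and its log2 change on the log2(value + 1) scale, 5.54 (SE 0.13, limma adjusted p 2.6e-08), ranked number 2 from the top among the genes tested. Unlike Acta2, it was not raised in male 4. The non-muscle heavy chains rose far less. Myh9 (non-muscle IIA) was at 2273 ± 181 and 3416 ± 50.9, a log2 change of 0.59 (SE 0.08, limma adjusted p 0.000264), and Myh10 (non-muscle IIB) at 198 ± 23.3 and 255 ± 10.1, one of 0.37 (SE 0.09, limma adjusted p 0.00504) (SD, n = 3). Per kilobase, Myh11 still made up only 3.69% ± 0.599 of the 3 heavy chains in the libraries labelled female, against 0.0760% ± 0.00886 in those labelled male, while Myh9 held 89.9% ± 0.260 and 92.3% ± 0.258 (SD, n = 3).

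Light chains and their kinase. Myl9, the regulatory light chain typical of smooth muscle (chromosome 2), was read at 27.1, 18.3 and 17.7 in male 4, 5 and 6 and at 151, 135 and 123 in female 4, 5 and 6, a log2 change of 2.66 (SE 0.16, limma adjusted p 1.78e-06). The non-muscle regulatory chains moved apart. Myl12a rose from 303 ± 25.5 to 764 ± 34.5 (log2 change 1.33), and Myl12b, its neighbour on chromosome 17, fell from 164 ± 6.26 to 99.8 ± 3.31 (log2 change -0.71) (SD, n = 3). Both passed the limma threshold (adjusted p 1.48e-06 and 1.33e-05) with groups that did not overlap. The ratio of Myl12a to Myl12b was 2.08, 1.68 and 1.81 in male 4, 5 and 6 and 8.0, 7.87 and 7.09 in female 4, 5 and 6. Of the 50-base words of Myl12a, 21.1% also occur in other annotated genes, and 19.9% of its exon bases overlap other genes. Myl12b is the main one in both, so reads could be split between the pair. Myl6, the essential light chain of smooth and non-muscle myosin, rose 2.56-fold (log2 change 1.36, limma adjusted p 6.4e-07). Mylk, the kinase that activates the motor, rose from 7.64 ± 0.467 to 18.3 ± 1.06 (SD, n = 3), a log2 change of 1.16 (limma adjusted p 1.14e-05).

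Thin filament proteins. Tagln, transgelin or SM22 (chromosome 9), which binds actin filaments in smooth muscle, was read at 83.6, 40.2 and 32.5 in male 4, 5 and 6 and at 1179, 1091 and 900 in female 4, 5 and 6. It was 20.3-fold higher, with a log2 change of 4.43 (SE 0.30, limma adjusted p 4.06e-06), and without male 4 it was 29.1-fold higher. Its broadly expressed relative Tagln2 (chromosome 1) went the other way, from 867, 960 and 968 to 408, 413 and 394 in the same order, a log2 change of -1.20 (SE 0.07, limma adjusted p 1.22e-06). The ratio of Tagln to Tagln2 was thus 0.0964, 0.0419 and 0.0335 in male 4, 5 and 6 and 2.89, 2.64 and 2.28 in female 4, 5 and 6. Per kilobase, Tagln took 5.32% ± 2.99 of the pair in male-labelled libraries and 72.0% ± 2.40 in those labelled female (SD, n = 3). An annotated gene on the opposite strand covers 67.9% of the exon bases of Tagln. It is not analysed here, and whether counting used strand is not stated.

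Calponins also bind thin filaments and slow the myosin motor. Cnn1, the smooth muscle isoform (chromosome 9), was read at 8.87, 3.97 and 4.03 in male 4, 5 and 6 and at 86.1, 77.8 and 70.9 in female 4, 5 and 6. Its log2 change was 3.66 (SE 0.25, limma adjusted p 4.06e-06). The broader isoforms rose by less, Cnn2 from 130 ± 17.7 to 434 ± 46.0 (log2 change 1.74) and Cnn3 from 245 ± 14.7 to 420 ± 7.21 (0.78) (SD, n = 3). Cnn2 had the largest log2 change of the 20 general genes, and both passed the limma threshold (adjusted p 2.89e-06 and 1.03e-05). Of the 50-base words of Cnn3, 24.0% also occur in other annotated genes, and 17.7% of its exon bases are covered on the opposite strand.

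Lmod1, leiomodin 1, which nucleates actin filaments in smooth muscle (chromosome 1), was read at 1.45, 1.41 and 1.02 in male 4, 5 and 6 and at 31.4, 25.9 and 19.2 in female 4, 5 and 6. It was 19.7-fold higher (log2 change 3.51, SE 0.18, limma adjusted p 7.89e-07). Its lowest female value was an order of magnitude above its highest male value. Cald1, caldesmon, which blocks myosin on the thin filament, rose from 1257 ± 140 to 2605 ± 26.8 (SD, n = 3), a log2 change of 1.06 (SE 0.09, limma adjusted p 1.39e-05). It is abundant in both groups.

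Tropomyosins coil along actin and set which motors bind. All 4 genes rose, the muscle-type forms by more. Tpm1 rose 3.02-fold (log2 change 1.60) and Tpm2 3.27-fold (1.70), against 1.39-fold for Tpm3 (0.48) and 1.49-fold for Tpm4 (0.58). Their limma adjusted p ran from 3.32e-07 (Tpm2) to 0.000433 (Tpm3), and the groups did not overlap for any of the 4. In the summed value per kilobase, Tpm1 rose from 14.6% ± 0.537 to 24.7% ± 0.875 of the family and Tpm2 from 5.72% ± 0.260 to 10.4% ± 0.530, while Tpm4 fell from 52.5% ± 0.850 to 43.8% ± 0.943 (SD, n = 3). Tpm4 was the most abundant tropomyosin in both groups. Of the 50-base words of Tpm3 and Tpm4, 23.2% and 15.7% also occur in other annotated genes.

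**Figure D3:**
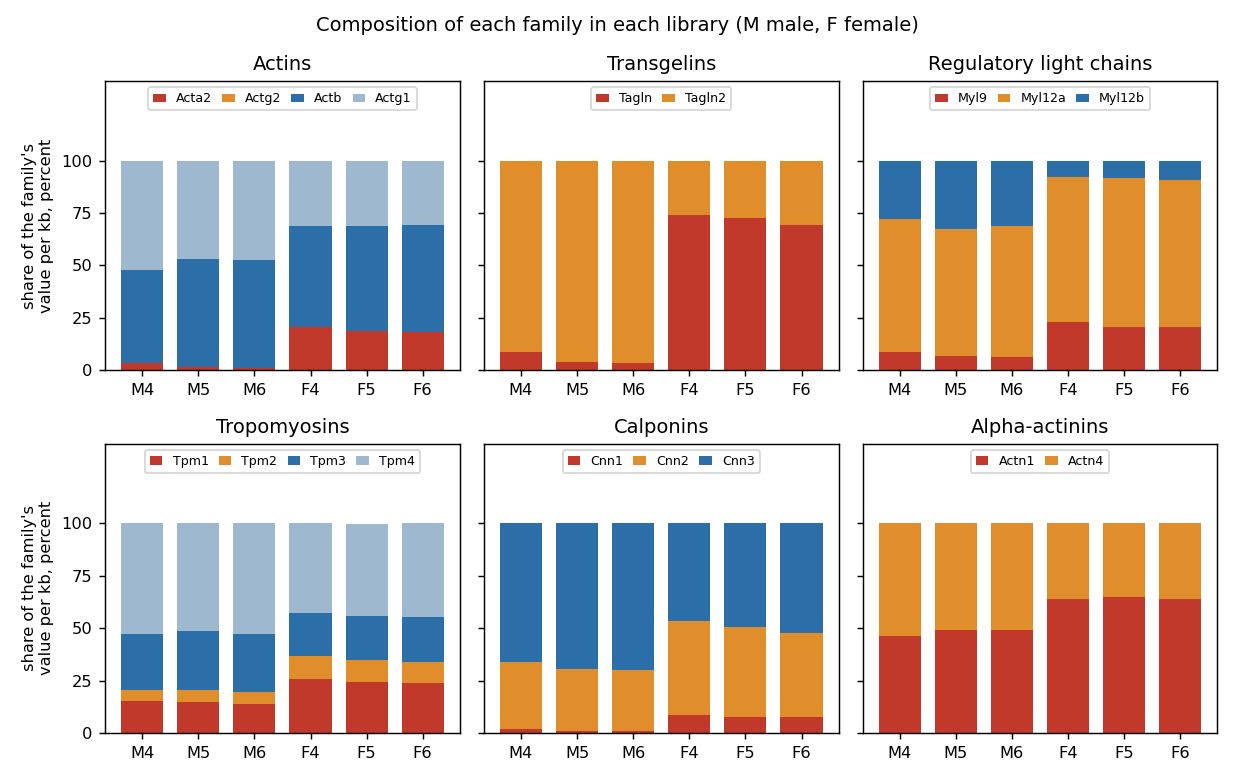
Stacked bars show the share of each gene in the summed value per kilobase of its family, in percent, for each library (M4 to M6 labelled male, F4 to F6 labelled female). In the transgelins the libraries labelled male hold mostly Tagln2 and those labelled female mostly Tagln, and the Myl12b share is the smallest part of the light chains in F4, F5 and F6.

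Over 10 pairs of related genes, the log2 ratio within each library was apart between the groups in all 10. The share over gene pairs in general was not computed, so nothing is read from this count about these pairs in particular. The differences of the mean log2 ratio ran from 0.95 (Actn1 over Actn4) to 5.66 (Tagln over Tagln2). An exact two-sided permutation test of 3 against 3 libraries cannot go below 0.1, and each pair reached that value (0.1 adjusted over the 10 pairs).

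Smtn, smoothelin, was the restricted gene that fell. It was read at 241, 272 and 268 in male 4, 5 and 6 and at 117, 109 and 104 in female 4, 5 and 6, a log2 change of -1.24 (SE 0.07, limma adjusted p 1.78e-06). Per kilobase in the libraries labelled male it stood at 77.0 ± 4.99 (SD, n = 3), above every other restricted gene there, among which Acta2 at 38.6 ± 23.5 came next. A gene on the opposite strand covers 16.3% of its exon bases. The gene makes both smooth muscle and other isoforms, which gene-level values do not separate.

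Crosslinkers and anchors. Flna, filamin A, which crosslinks actin into networks, was read at 1452, 1007 and 1011 in male 4, 5 and 6 and at 3104, 3093 and 2892 in female 4, 5 and 6 (log2 change 1.41, SE 0.14, limma adjusted p 3.55e-05). Actn1, alpha-actinin 1, rose 2.07-fold, from 750 ± 2.84 to 1555 ± 78.0 (log2 change 1.05, limma adjusted p 2.33e-06). Its relative Actn4 was at 840 ± 55.0 and 897 ± 32.1, with overlapping groups (log2 change 0.10, limma adjusted p 0.25) (SD, n = 3). Without male 4, Actn4 was called higher at a log2 change of 0.15 (limma adjusted p 0.0122). Vcl, vinculin, which links actin to adhesions, rose 1.53-fold (log2 change 0.62, limma adjusted p 0.000122), and Zyx, zyxin, a stress fibre repair protein, 1.33-fold (0.41, limma adjusted p 0.000361). For Vcl, 25.5% of exon bases are covered by Ap3m1 on the opposite strand, which was itself higher (60.2 to 62.5 in the libraries labelled male, 126 to 132 in those labelled female).

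LIM domain adaptors went separate ways. Csrp1 rose from 185 ± 10.7 to 321 ± 36.5 (SD, n = 3), a log2 change of 0.79 (limma adjusted p 8.55e-05). Csrp2, although known as a vascular smooth muscle marker, fell, from 70.8, 83.0 and 80.4 in male 4, 5 and 6 to 20, 21.7 and 19.8 in female 4, 5 and 6, a log2 change of -1.88 (SE 0.08, limma adjusted p 3.91e-07). That was the largest decrease among the 38 genes. Pdlim5 rose 1.72-fold (log2 change 0.79, limma adjusted p 0.00039). Pdlim7 did not pass the threshold (log2 change 0.04, limma adjusted p 0.778), with male 4 at 137 above and male 5 and male 6 at 106 and 104 below every library labelled female (114 to 121). Without male 4 it was called higher (0.16, limma adjusted p 0.0121).

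Intermediate filaments. Des, desmin, the muscle intermediate filament and also a stellate cell marker in rodents, was low throughout, at 6.97, 9.11 and 8.90 in male 4, 5 and 6 and 16.9, 13.3 and 12.5 in female 4, 5 and 6. It was called higher (log2 change 0.70, SE 0.14, limma adjusted p 0.00236), by 1.71-fold. Vim, vimentin of mesenchymal and endothelial cells, was the most abundant of the 38 per kilobase and fell from 7104 ± 115 to 4957 ± 142 (SD, n = 3), a log2 change of -0.52 (SE 0.08, limma adjusted p 0.000554). Under quantile normalization this decrease was not seen (0.08, limma adjusted p 0.433).

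**Figure D4:**
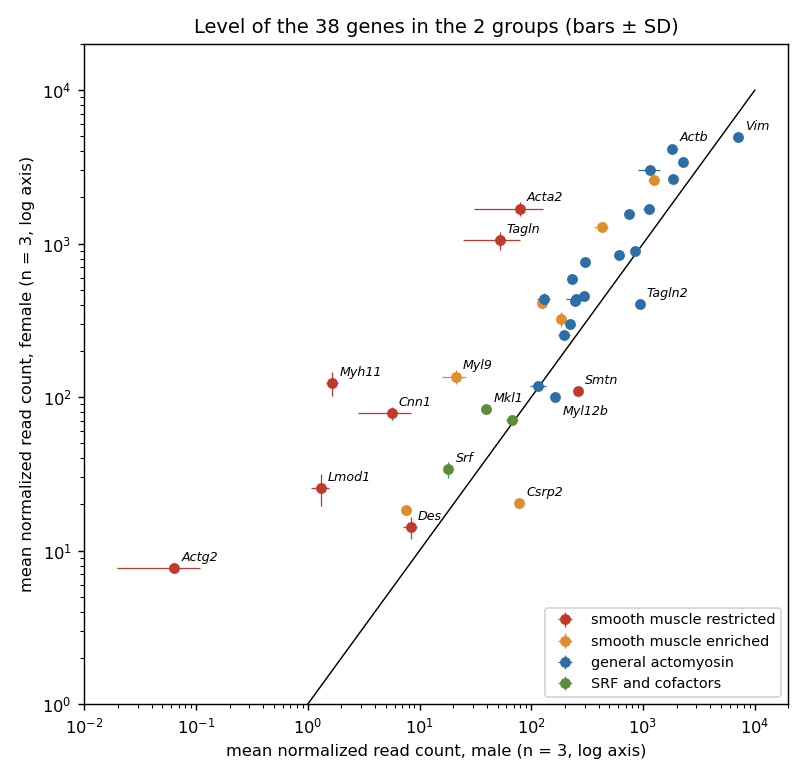
Mean normalized read count in the 3 libraries labelled male (horizontal, log axis) and the 3 labelled female (vertical, log axis) for the 38 genes, with bars of 1 SD and a line of equality. Restricted genes other than Smtn and Des lie far above the line at low male levels, and most general genes lie just above it at high levels.

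Libraries within a group. Male 4 exceeded 1.5 times the mean of male 5 and male 6 for 4 of the 38 genes (Acta2 at 2.61 times, Tagln at 2.30, Cnn1 at 2.22 and Myl9 at 1.51), against 4.63% of all genes tested. Myh11 (1.09), Lmod1 (1.19) and the cytoplasmic Actb (0.904) did not share this. Male 4 was the highest of its group for 27 of the 38 genes (4 of 8 restricted, 6 of 7 enriched and 16 of 20 general), against 40.2% of genes tested. Female 4 was the highest of its group for all 8 restricted genes, against 31.7% of genes tested, and female 6 the lowest for 7 of 8, against 34.5%. Sequencing depth was also highest in female 4 and lowest in female 6, and its part in this was not tested. Leaving out any single library, 34 of the 35 called genes kept call and direction in all 6 fits. Actg2 kept them without male 4, 5 or 6 and was not tested without female 4, 5 or 6, where it did not pass the filter.

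The authors' deposited table calls fewer genes, 25.8% at a false discovery rate under 0.05, with 12% higher and 13.8% lower. Of the 38 genes the authors' deposited table calls 21 higher and 3 lower (Smtn, Csrp2 and Tagln2), among them 6 of 8 restricted genes higher but only 8 of 20 general genes. The authors' deposited table does not call Des (false discovery rate 0.632), Mylk (0.125), Myh9 (0.0701) or Vim (0.0932).

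A list of further smooth muscle genes held mostly increases. Of 20 such genes, 19 were in the table and 17 tested, with 12 called higher and 3 lower, and a median log2 change of 0.47. Without the 4 that passed the filter through 1 group (Myocd, Kcnmb1, Jph2 and Pgm5), 9 were higher and 2 lower, with a median of 0.44. Fhl1, a LIM protein of muscle, was at 27.6, 18.0 and 17.9 in male 4, 5 and 6 and 90.3, 84.9 and 83.6 in female 4, 5 and 6 (log2 change 2.0, limma adjusted p 7.77e-06). Jph2, a junction protein of excitable cells, rose from 0.484 ± 0.0217 to 9.48 ± 2.26 (2.80), whereas Sncg, gamma-synuclein, fell from 17.0 ± 1.29 to 9.44 ± 1.07 (-0.79) and Pgm5 from 1.33 ± 0.394 to 0.710 ± 0.196 (-0.44) (SD, n = 3). The call of Pgm5 (limma adjusted p 0.035) was lost in some alternative fits. The count called higher was 6 without female 4 and 7 without female 5.

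Of 21 actin filament regulators, 15 were higher and 3 lower (median 0.53), led by Dstn, destrin, an actin-severing protein (1.5), and Msn, moesin, a membrane linker (1.37). Tmod3, a filament capping protein (-0.99), and Enah, a filament elongation factor (-0.39), were lower.

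Of 16 genes listed as focal adhesion linkers, 9 were higher and 6 lower (median 0.46). Filip1l (2.37) and Parva, parvin alpha, which ties integrins to actin (0.84), rose the most. Hic1 (-1.31), which encodes a transcription factor rather than a linker, and Fblim1, a filamin-binding adaptor (-1.0), fell the most. Striated muscle genes were near the floor. Of 16 listed, 12 were in the table and 6 tested, with 2 higher and 2 lower. Tnnt2, cardiac troponin T, was the exception in level, at 2.20, 2.33 and 1.80 in male 4, 5 and 6 and 27.0, 23.7 and 20.9 in female 4, 5 and 6 (log2 change 3.0, limma adjusted p 3.04e-07). Acta1, skeletal actin (1.48), was called higher through the libraries labelled female alone, and Tnnt1 (-0.61) and Actn3 (-0.52) were lower at values under 3.

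Markers of other cell types also differed between the groups, in either direction. Of 13 tested endothelial markers, 11 were called lower and 1 higher in the libraries labelled female, with a median log2 change of -2.23. Robo4 and Vwf passed the filter through the libraries labelled male alone, and without them 9 were lower and 1 higher. The summed value of the list ran from 2388 to 2507 in male-labelled libraries and from 1220 to 1275 in female-labelled ones. Egfl7, a secreted endothelial protein, was at 39.1, 58.1 and 60.8 in male 4, 5 and 6 and at 3.53, 2.56 and 2.28 in female 4, 5 and 6 (log2 change -3.81, limma adjusted p 6.77e-07). Pecam1, the CD31 gene, fell from 407 ± 16.2 to 73.9 ± 0.540 and Cdh5, VE-cadherin, from 924 ± 5.58 to 387 ± 11.9 (SD, n = 3). Vwf (log2 change -4.71), at 0.491 ± 0.104, and Cldn5, at 0.0622 ± 0.0729 (SD, n = 3), were near 0 in the libraries labelled female. Eng, endoglin, was the 1 called higher (0.40).

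Markers of stellate cells, pericytes and fibroblasts were mostly lower in the libraries labelled female, but not all of them. Of 13 tested, 9 were called lower and 1 (Hand2) higher, with a median log2 change of -1.43 and a summed value from 2847 to 3591 against 1040 to 1049. Hand2 passed the filter through the libraries labelled female alone and Lum through those labelled male alone, and without both 8 were lower and 0 higher. Reln and Colec11 did not pass the filter. Reln was higher in the libraries labelled female (0.994 ± 0.242 against 0.241 ± 0.0465) and Colec11 lower (0.231 ± 0.125 against 0.587 ± 0.0848) (SD, n = 3). Neither overlapped between groups. Des, also a stellate cell marker, is not on this list and was called higher. Pdgfrb, the pericyte and stellate cell receptor, was at 129, 133 and 136 in male 4, 5 and 6 and 14.6, 13.0 and 15.3 in female 4, 5 and 6 (log2 change -3.13, limma adjusted p 2.65e-08). Col3a1 fell by 2.47 on the log2 scale, with male 4 at 1553 against 1115 and 1130 in the others of its group. Notch3, a mural receptor, was at 53.7, 26.7 and 27.4 in male 4, 5 and 6 and at 37.0, 37.4 and 34.0 in female 4, 5 and 6, and was not called (0.08, limma adjusted p 0.768). Without male 4 it was called higher (0.40, limma adjusted p 0.000484), against the direction of most of the list.

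Most mesothelial markers tested were higher in the libraries labelled female. Of 6 tested, 5 were called higher and 1 (Krt19) lower, 4 of them passing the filter through the libraries labelled female alone (Upk3b, Upk1b, Wt1 and Gpm6a), so that these had to differ. Without them 1 was higher and 1 lower, with a median log2 change of 1.02. Msln, mesothelin, was at 17.1, 20.5 and 20.6 in male 4, 5 and 6 and at 358, 338 and 299 in female 4, 5 and 6 (log2 change 4.03, limma adjusted p 2.04e-08). Upk1b (4.51) and Wt1 (3.64) were under 1 in every library labelled male, and Upk3b was at 0 there. The summed value overlapped, from 425 to 520 against 501 to 507. Krt19, the most abundant of them in male-labelled libraries, is a keratin of mesothelial and bile duct cells and fell from 461 ± 47.7 to 116 ± 20.2 (SD, n = 3). Macrophage markers (summed value from 7.51 to 9.99 in male-labelled libraries and from 13.2 to 15.7 in female-labelled ones, Tyrobp at 0 in all and Ptprc at 0 in those labelled male) were low. Hepatocyte markers were under 1 in every library (Alb from 0 to 0.600) apart from Trf and Apob, a lipoprotein gene read at 0.664, 1.87 and 0.706 in male 4, 5 and 6 and at 7.84, 6.01 and 1.66 in female 4, 5 and 6. Of the 2 tested in each of these lists, 2 macrophage markers (Csf1r and Cd68) were called higher, and of the hepatocyte markers Apob was called higher (1.45, limma adjusted p 0.0146) with overlapping groups, and Trf lower (-0.70). The part of these cell type differences in the contractile gene values was not tested.

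**Figure D5:**
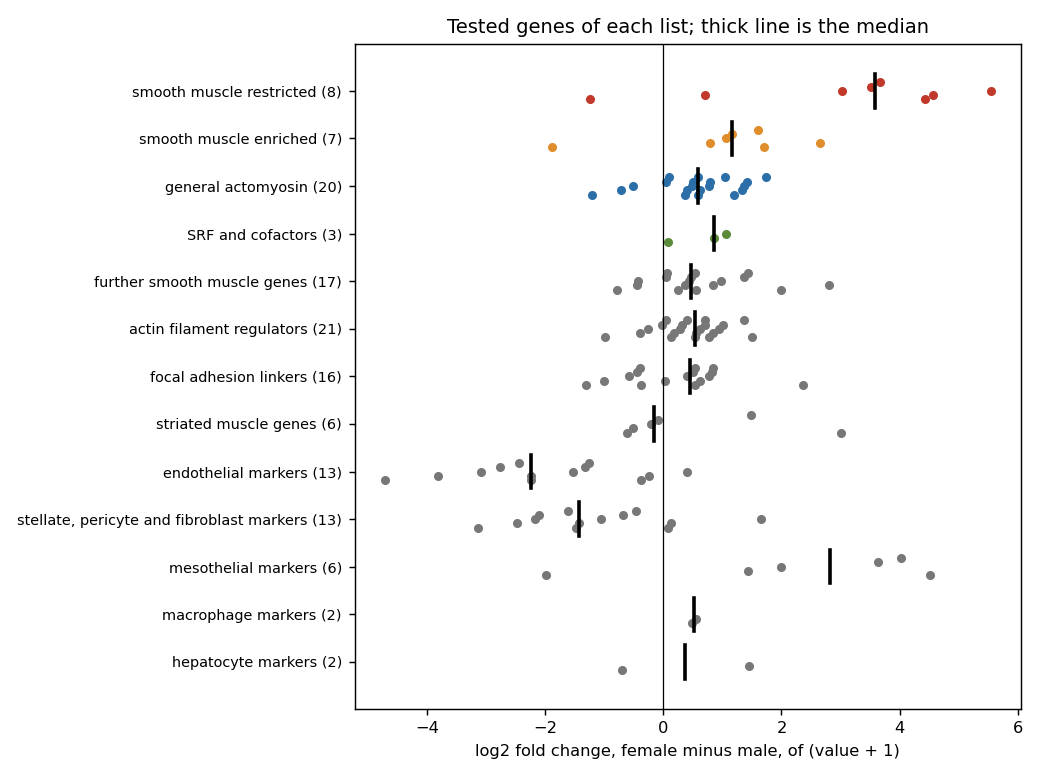
Log2 change (log2(value + 1) scale, female minus male) of every tested gene, by list, with the number tested in brackets and a thick line at the median. Restricted contractile genes (median 3.58) lie to the right, as do mesothelial markers (2.82, or 1.02 without the 4 that passed the filter through the libraries labelled female alone), and endothelial (-2.23) and stellate, pericyte and fibroblast markers (-1.43) lie to the left.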

How the data were processed

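Poly(A) RNA sequencing was performed on 6 libraries, 3 labelled male and 3 labelled female. The submitters' processing notes name Bowtie2, RSEM, edgeR and the build mm39, with no versions or roles, and the rule behind the deposited table's gene filter is not given in the sources used here. The authors deposited 1 signal value per gene and library, a normalized read count. Of these, 100% were whole multiples (tolerance 0.001) of the smallest value above 0 in their column, so the authors divided whole reads by 1 factor per library, and reads were recovered by that division. Per the file headers, the authors also deposited a signed linear fold change, treated as a score, and 2 p-value columns, one raw and one as a false discovery rate. 0 columns of per-sample values lacked a sample.

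The main test was limma 3.58.1 (R 4.3.3, trended eBayes) on log2(value + 1). It covered the 12568 genes whose value reached 1 in 3 or more libraries. This scale understates changes of low genes. Benjamini-Hochberg adjustment ran over all genes tested, and 0.05 was the threshold. On recovered reads, edgeR 4.0.16 (quasi-likelihood) called 8975 of 13199 genes (68.0%), and DESeq2 1.42.0 and voom were also run. The fits were tested on simulated reads. Values per kilobase use the longest coding transcript of GENCODE M21 (GRCm38), in which 13493 of 13595 symbols were found (99.2%), Mkl1 and Mkl2 as Mrtfa and Mrtfb. The 38 genes, their classes and all lists were chosen with earlier results of these data known. All 38 are reported, and of each other list at most 2 increases and 2 decreases, the largest among called genes with groups that did not overlap, were to be named. Myocd, Kcnmb1, Pecam1, Cdh5, Cldn5, Notch3, Reln, Colec11, Wt1, Upk3b, Gpm6a, Robo4, Lum, Apob, Ap3m1, Alb, Tyrobp and Ptprc were named after their values were seen. One further list of genes is not reported here.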

Additional observations from a re-analysis of the deposited data

How the results depend on the processing

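Leaving aside the fold threshold treated further on, the 35 called genes kept direction and call in every alternative fit that tested them, except Vim under quantile normalization (0.08). Over all 38 genes and these fits, 634 of 642 values kept direction and call. Of the genes not called, Actn4 was called higher with the GC content and length correction (0.31) and without male 4 (0.15), Pdlim7 likewise (0.36 and 0.16), and Mkl2 without male 4 (0.18). Pdlim7 was -0.02 without male 5 and -0.03 without male 6. The cause of these changes was not tested. Among 28 other named genes, 449 of 456 values held; Pgm5 lost its call in 5 and Actn3 in 2.

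The restricted median rose from 3.58 to 4.32 with a pseudocount of 0.1, 4.31 with edgeR, 4.31 with DESeq2 and 4.37 with voom, and its distance from the general median from 2.99 to 3.73, 3.74, 3.74 and 3.79, since a pseudocount of 1 shrinks low genes. Counting enriched genes with restricted ones gave 13 higher and 2 lower, a median of 1.70 and a distance of 1.11, and counting them with general genes gave a general median of 0.78. Requiring a change of at least 2-fold (1 on the log2 scale) left 2589 of 8704 called genes, 18 of the 38 higher and 3 lower, and 6 and 1 of the general genes. It left 4 and 0 of the further smooth muscle genes, 3 and 0 of the actin filament regulators, 1 and 2 of the focal adhesion linkers, and 0 striated genes lower. Striated genes called higher were 4 without a filter and 1 with at least 10 reads in every library, and 1 was lower with the GC content and length correction. Leaving out 1 library at a time, further smooth muscle genes called higher ran from 6 to 13, and striated genes from 1 to 2 higher and from 1 to 2 lower. Without division by length, Myh11 was 0.0668% of the heavy chains in the libraries labelled male. Quantile normalization moved the share of calls that were higher from 50% to 55.3%.

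Libraries with the same replicate number did not deviate together (r = -0.094, -0.03 and -0.17 over 12568 genes), so the numbers were not taken as pairs, and no library correlated best with its own number. With a replicate block 8314 genes were called, and again 30 of the 38 higher and 5 lower. Depth limits genes near the floor, such as Actg2 with 5 reads in all libraries labelled male.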
